A study of Mus musculus with 6 samples.

Results

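The 10 histone deacetylases Hdac1 to Hdac10 were read in bulk RNA-seq libraries of 2 kinds of mouse regulatory T cell (Treg), as 10 of the 15944 genes in the deposited table. Genes entered by symbol, and all 10 symbols were present. The family was selected on the normalized counts of Hdac9, which had been seen to differ between the 2 groups in these same libraries, so the members' values and fold changes in that contrast are given as a description, with no test. Hdac9 stood about 5-fold lower in RORγt+ Tregs, at 31.5 ± 8.34 against 161 ± 19.0 normalized counts (mean ± SD, n = 3 per group). Hdac4, of the same class, stood at 625 ± 65.9 against 1017 ± 44.6 normalized counts. The other 8 members had overlapping groups. Among all genes in the table, 18.1% had groups without overlap.

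Tregs are the CD4+ T cells that hold immune responses in check, and Foxp3 is their defining transcription factor. The cells came from spleens of C57BL/6 mice carrying a red fluorescent reporter of Foxp3 and a green fluorescent reporter of RORγt, a nuclear receptor shared with T helper 17 cells. After magnetic enrichment of CD4+ cells, the first group was sorted as CD3+CD4+ cells positive for both reporters, without a gate on the chemokine receptor CCR6. The second was sorted as CD3+CD4+ cells positive for the Foxp3 reporter, negative for the RORγt reporter and positive for CCR6. Both groups therefore carry both reporters and share strain and organ, and no treatment or time separates them. The design text calls the cells naïve, and does not say whether the number of sorted cells it gives is per library. The sources used here give neither age nor sex of the mice. The groups are called RORγt+ and RORγt- below, with 3 libraries each, and the question is how the former differ from Tregs that carry CCR6 without RORγt. RNA of Ccr6 was nevertheless higher in the group sorted without a CCR6 gate, at 698, 815 and 900 normalized counts in RORγt+ against 112, 143 and 148 in RORγt- replicates 1, 2 and 3, so the groups do not differ in RORγt alone. The labels do not tie libraries to animals, so the spread between libraries of a group may be technical. Every SE, every p-value and every SD within a group here measures that spread. An SD taken over both groups also holds the difference between them. In bulk RNA, fewer cells that express a gene and less of its RNA per cell cannot be told apart.

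Histone deacetylases remove acetyl groups from lysines of histones and of other proteins, and mostly act as parts of repressor complexes on chromatin. Class I enzymes (Hdac1, Hdac2, Hdac3 and Hdac8) are chiefly nuclear. Class IIa enzymes (Hdac4, Hdac5, Hdac7 and Hdac9) have little catalytic activity of their own, bind MEF2 factors through an extended amino terminus, and leave the nucleus once calcium-dependent and other kinases phosphorylate them. Class IIb enzymes (Hdac6 and Hdac10) work largely in the cytoplasm. In Tregs, Foxp3 itself is regulated by lysine acetylation, and mice that lack Hdac9 are known for Tregs with greater suppressive function.

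The depth, read from the value of a single read, was about 9200000 to 14500000 reads per library. All 7 Treg markers, among them Foxp3 and Cd4, were present in every library, with summed levels of 46222 to 49529 in RORγt+ and 44500 to 46754 in RORγt- libraries. RORγt+ replicate 3 stood apart: it had 1247 genes at 0 against 438 to 638 elsewhere, and its highest correlation with any other library was 0.938 against at least 0.964 for the other libraries. Markers of other cells were present at lower summed levels. The 10 B cell markers, mostly Ighm, summed to 6825 to 10196 against 8049 to 9823, and 6 of 8 monocyte markers in the table to 261 to 419 against 838 to 981. Without Cybb, the last ranges were 58.5 to 149 against 40.0 to 64.6. The summed markers of dendritic cells (312 to 615 against 407 to 459), CD8 T cells (116 to 152 against 99.0 to 183), NK cells (71.3 to 95.9 against 47.0 to 89.3) and γδ T cells (179 to 225 against 132 to 192) overlapped between the groups. Red cell and platelet markers, 4 of 6 in the table and all of them globin genes, summed to 194 to 1207 against 72.6 to 6107. The highest sum was in RORγt- replicate 2, which is also the highest library for Hdac9. No marker in the table was at 0 in every library. The part of other cells or of RORγt+ replicate 3 in the differences of the deacetylases was not tested, except that values without that library are given.

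Hdac9 (chromosome 12, 34047580 to 34917095, minus strand, GRCm38) encodes the class IIa enzyme best known from muscle, where it holds MEF2 target genes in check, and its gene spans 870 kb. It had 35.2, 37.4 and 21.97 normalized counts in RORγt+ replicates 1, 2 and 3, and 141, 178 and 165 in RORγt- replicates 1, 2 and 3. Every RORγt+ library lay below every RORγt- library, with a wide gap between the groups. These values rest on about 33, 38 and 18 reads against about 137, 196 and 201. The difference, RORγt+ minus RORγt- on the log2(value + 1) scale, was -2.35 ± 0.28 (SE), with a 95% interval of -3.01 to -1.68. RORγt+ replicate 3, the library that stood apart, was the lowest, and without it the difference was -2.12. Without RORγt- replicate 2, the highest, it was -2.27. Over 15 alternative settings of scaling, pseudocount, filter, weights and libraries it lay between -2.49 and -2.12. Only 0.332% of the 31-base windows of its transcripts are shared with another gene. Gm18025, a processed pseudogene inside Hdac9 on the same strand, had 2.45 against 3.04 normalized counts.

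**Figure D1:**
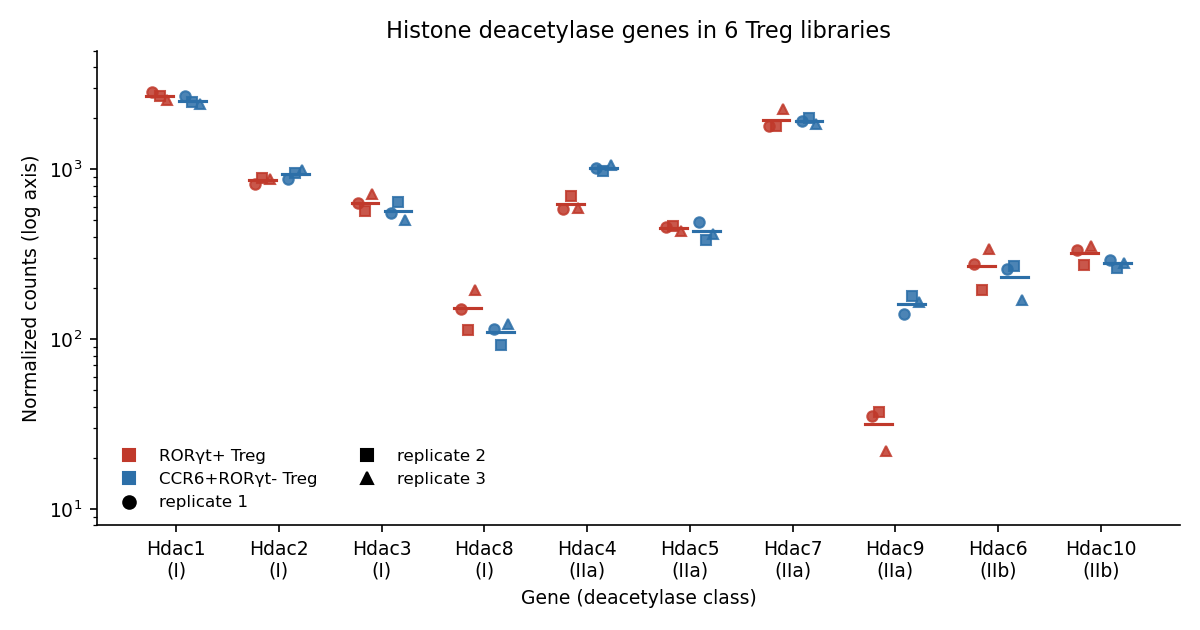
Normalized counts of the 10 deacetylases in each library, on a log axis, with the 3 RORγt+ and the 3 RORγt- libraries as separate points, shaped by replicate, and a bar at each group's mean. Hdac9 lies between 21.97 and 37.4 in RORγt+ and between 141 and 178 in RORγt- libraries, Hdac4 is also apart, and the groups of the other 8 members overlap.

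RefSeq (GRCm38.p6) places 2 starts in Hdac9, 388 kb apart, and values per gene cannot separate transcripts that begin at either. The gene is known to give isoforms without the catalytic domain, which still repress MEF2, and these cannot be separated here either. The 250 bases before each start, and before the RefSeq start of Hdac4, are shown because these are the members whose groups did not overlap. They lie at chr12:34917096-34917345 for the distal Hdac9 start, chr12:34528890-34529139 for the internal Hdac9 start and chr1:92180342-92180591 for Hdac4, all on the minus strand, and are written 5′ to 3′ in the direction of transcription. The Hdac4 window lies inside the span of the gene in GENCODE, whose upstream end is at 92195699, and the bases before that end are not shown. Capitals mark the core motif of ROR-family receptors, AGGTCA, which here lies on the opposite strand.
Hdac9 distal start: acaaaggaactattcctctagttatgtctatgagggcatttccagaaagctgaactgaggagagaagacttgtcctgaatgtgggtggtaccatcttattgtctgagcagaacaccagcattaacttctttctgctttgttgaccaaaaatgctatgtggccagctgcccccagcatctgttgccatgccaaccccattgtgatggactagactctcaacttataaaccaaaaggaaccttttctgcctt
Hdac9 internal start: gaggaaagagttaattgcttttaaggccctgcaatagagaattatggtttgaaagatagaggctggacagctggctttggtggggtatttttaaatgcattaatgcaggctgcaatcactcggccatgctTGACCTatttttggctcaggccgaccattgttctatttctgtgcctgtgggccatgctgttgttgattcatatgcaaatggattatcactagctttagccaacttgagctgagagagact
Hdac4 start: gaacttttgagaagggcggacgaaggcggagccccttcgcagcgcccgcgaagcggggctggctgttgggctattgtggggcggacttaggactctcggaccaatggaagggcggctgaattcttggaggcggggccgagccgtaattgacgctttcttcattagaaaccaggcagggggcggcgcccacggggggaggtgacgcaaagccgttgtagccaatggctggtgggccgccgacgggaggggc

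The motif AGGTCA was searched on both strands. It occurred 1 time before the internal Hdac9 start, with its farthest base 120 bases upstream, and not in the window of the distal Hdac9 start or of Hdac4. Of 32851 RefSeq promoter windows of the same length, 14.0% hold it. It also occurred in a window of Hdac7, a member whose groups overlapped, with its farthest base 179 bases before an internal start. The MEF2 motif, searched by its consensus on both strands, was in none of the 3 windows shown, in the window of Hdac5 and in 2.92% of all. Base composition set the windows apart: the distal Hdac9 window holds 0 CpG and 44.4% G and C and the internal window 2 CpG and 43.6%, while the Hdac4 window holds 23 CpG and 65.2%, where the medians of all windows were 6 CpG and 52.4%. In all, 7 of the 10 members had a promoter entry. A match is a string of letters and not a measured binding site.

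Hdac4 (chromosome 1, 91928779 to 92195699) is the class IIa enzyme that bridges MEF2 sites to the Hdac3 corepressor. It had 583, 701 and 591 normalized counts in RORγt+ replicates 1, 2 and 3, and 1016, 973 and 1062 in RORγt- replicates 1, 2 and 3. The RORγt+ libraries again all lay below the RORγt- libraries. The log2 difference was -0.71 ± 0.13 (SE), with a 95% interval of -1.02 to -0.39, and the alternatives gave -0.79 to -0.66. Of its 31-base windows, 21.9% are shared with another gene, all of them with Gm26720, a long noncoding RNA on the opposite strand that is not in the table. Without knowing whether the counting used strand, reads from the 2 genes cannot be told apart.

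Hdac5 and Hdac7 complete class IIa. Hdac5 (chromosome 11, 102194432 to 102230166), a brake on hypertrophic gene programmes in heart muscle, had 461, 464 and 432 normalized counts in RORγt+ and 490, 383 and 419 in RORγt- replicates 1, 2 and 3. The RORγt- libraries enclosed all 3 RORγt+ values, and the log2 difference was 0.08 ± 0.15 (SE), 95% interval -0.28 to 0.43. Hdac7 (chromosome 15, 97792664 to 97844502), the class IIa enzyme known for its high expression in thymocytes, had 1802, 1791 and 2284 normalized counts in RORγt+ and 1920, 1997 and 1863 in RORγt- replicates. RORγt+ replicate 3 was the highest and the other RORγt+ libraries the lowest, and the log2 difference was 0.02 ± 0.14 (SE), 95% interval -0.30 to 0.33. The gene overlaps Slc48a1 on the opposite strand, which stood at 429 against 415 normalized counts.

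The make-up of the class IIa RNA was then compared between the groups. Per kilobase of merged exon, Hdac9 made up 0.573% ± 0.193 of the summed class IIa level in RORγt+ and 2.69% ± 0.327 in RORγt- libraries (SD, n = 3). Hdac4 made up 10.4% ± 1.69 against 15.7% ± 0.923, and Hdac7 75.5% ± 3.45 against 69.6% ± 1.70. The shares depend on the length used. Per kilobase of mean coding transcript length, a setting added after the values were seen, Hdac9 held 1.06% ± 0.334 against 4.66% ± 0.591 and Hdac4 19.2% ± 2.62 against 27.1% ± 1.30, with the same direction. Since Hdac9 differed by more than Hdac4, the ratio of their normalized counts also differed, at 20.8 ± 5.45 against 6.38 ± 0.884. As a share of all 10 members per kilobase, class IIa held 22.6% ± 1.71 against 24.9% ± 0.363.

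The class I enzymes Hdac1 and Hdac2 are close paralogs that form the catalytic core of the Sin3, NuRD and CoREST complexes. Hdac1 (chromosome 4, 129516104 to 129542713) had 2875, 2725 and 2568 normalized counts in RORγt+ and 2702, 2503 and 2427 in RORγt- replicates 1, 2 and 3. Hdac2 (chromosome 10, 36974544 to 37001889) had 817, 894 and 883 against 874, 951 and 989. The groups overlapped for both, with log2 differences of 0.10 ± 0.11 (SE, 95% interval -0.16 to 0.36) for Hdac1 and -0.12 ± 0.12 (-0.40 to 0.17) for Hdac2. Hdac1 is the less certain value, as 40% of its 31-base windows occur in other genes, 34.8% in the pseudogene Gm10093, which had 34.3 ± 13.5 against 21.99 ± 10.1 normalized counts. Hdac2 shares none.

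Hdac3 is the catalytic subunit of the NCoR and SMRT corepressors and supplies the activity of class IIa complexes. It had 631, 566 and 716 normalized counts in RORγt+ and 556, 647 and 504 in RORγt- replicates 1, 2 and 3. Hdac8 (chromosome X, 102284639 to 102505359), which deacetylates the cohesin subunit Smc3, had 151, 113 and 195 against 115, 92.9 and 123. In both genes RORγt+ replicate 3 was the highest library and the groups overlapped. The log2 differences were 0.17 ± 0.16 (SE, 95% interval -0.21 to 0.54) for Hdac3 and 0.44 ± 0.26 (-0.16 to 1.05) for Hdac8.

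Of class IIb, Hdac6 (chromosome X, 7930120 to 7947889) deacetylates tubulin and the chaperone Hsp90, and Hdac10 (chromosome 15, 89123307 to 89128700) is a polyamine deacetylase. Hdac6 had 277, 194 and 339 normalized counts in RORγt+ and 258, 270 and 171 in RORγt- replicates 1, 2 and 3. Hdac10 had 337, 273 and 354 against 294, 261 and 282. RORγt+ replicate 3 was again the highest library for both, and the groups overlapped. The log2 difference was 0.20 for both, with SE of 0.27 for Hdac6 (95% interval -0.44 to 0.84) and 0.17 for Hdac10 (-0.19 to 0.59).

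Counted over the family, 1 of 10 members, Hdac9, was past a limma adjusted p under 0.05 in either direction, against 0.564% of all genes tested, and 1 of 10 was lower in RORγt+, against 0.245% of all genes. The groups did not overlap in 2 of 10 members, against 18.1% of all genes in either direction, and both lay with RORγt+ below, against 9.81% of all genes. Since this contrast led to the choice, nothing is read from these counts. The count was 0 of 10 in 6 of 15 alternatives, namely the fit with a replicate block and every fit without a library except that without RORγt+ replicate 3. Those fits called only 1 to 10 of all 15944 genes. With libraries weighted by quality, 2 of 10 members were called, Hdac9 and Hdac4, and 358 of all genes. The median log2 difference was 0.087 over the members and -0.011 over all genes. The 8 members other than Hdac4 and Hdac9 ranged from -0.12 to 0.44, and their 95% intervals reached from -0.44 to 1.05, so a moderate difference either way is within the error of several. The sign turned for Hdac7 in 5 of 15 alternatives and for Hdac5 and Hdac6 in 1 each. RORγt+ replicate 3 was the highest or lowest of all libraries in 6 of 10 members.

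**Figure D2:**
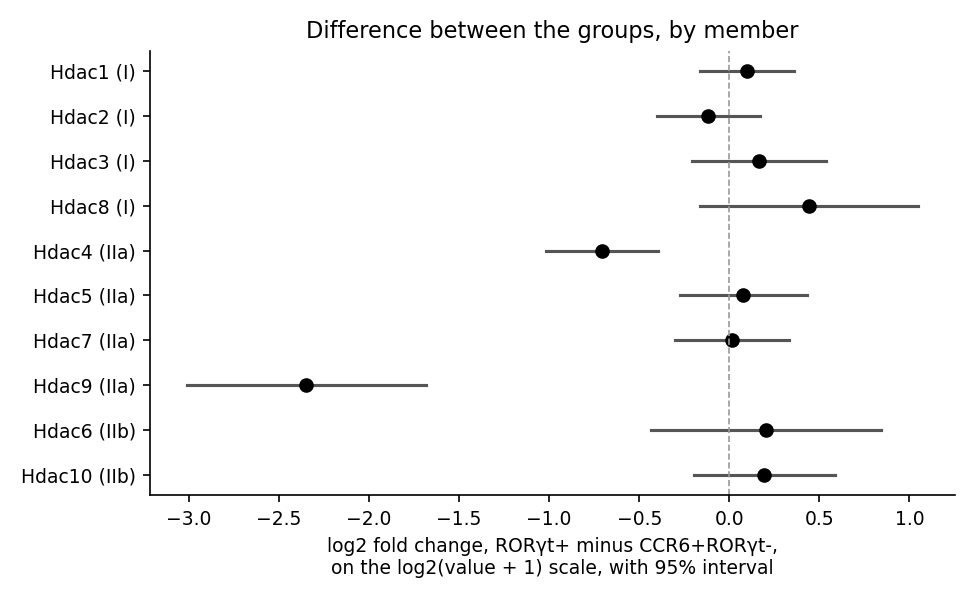
Log2 difference of each deacetylase, RORγt+ minus RORγt-, as a point with its 95% interval, from limma on log2(normalized count + 1). Hdac9 at -2.35 and Hdac4 at -0.71 lie lowest and Hdac8 at 0.44 highest. This contrast led to the choice of the family, so the intervals are a description and not a test.

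Across the 6 libraries the members' log2 values followed Hdac9 to different degrees. Pearson's r with Hdac9 was 0.97 for Hdac4 and 0.66 for Hdac2, and negative for the other 7 members, from -0.24 for Hdac7 to -0.77 for Hdac8. The 6 libraries fall into 2 groups, so these coefficients largely restate the difference between the groups and are given as a description.

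Levels of different genes were compared per kilobase of merged exon, as the mean ± SD over all 6 libraries. Hdac1 was the highest, at 764 ± 47.7 normalized counts per kilobase, followed by Hdac7 at 288 ± 27.2, Hdac2 at 201 ± 13.6, Hdac3 at 149 ± 18.8 and Hdac10 at 88.9 ± 10.9. The ranges of these neighbours in the order did not overlap at this length. Hdac4 at 51.9 ± 13.9, Hdac5 at 50.3 ± 4.33, Hdac6 at 43.2 ± 10.4 and Hdac8 at 27.2 ± 7.53 followed. Their ranges over the 6 libraries overlapped from each gene to the next. Hdac6 lay below Hdac5 in some libraries and above it in others, so their order is not settled. It lay above Hdac8 in every library at this length. By the longest coding transcript, however, Hdac8 had the higher mean (68.0 against 60.7). For Hdac4 and Hdac5 the overlap of the ranges came from pooling the groups. Hdac4 lay above Hdac5 in RORγt- libraries (61.5 to 67.2 against 43.7 to 55.8) and below it in RORγt+ libraries (36.9 to 44.3 against 49.2 to 52.9). Hdac9 was last in both groups, at 2.15 ± 0.569 in RORγt+ and 10.995 ± 1.30 in RORγt- libraries. The order was the same in both groups except for Hdac4, which ranked 6 in RORγt- and 8 in RORγt+ libraries, there below Hdac5 and Hdac6. With the longest coding transcript as the length, 6 of 10 members kept their place, and Hdac9 was last under all 3 lengths tried. By the longest coding transcript Hdac3 stood above Hdac2. By the mean coding transcript length Hdac10 ranked 7, below Hdac4 and Hdac5, and the ranges of Hdac2 and Hdac3 overlapped.

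**Figure D3:**
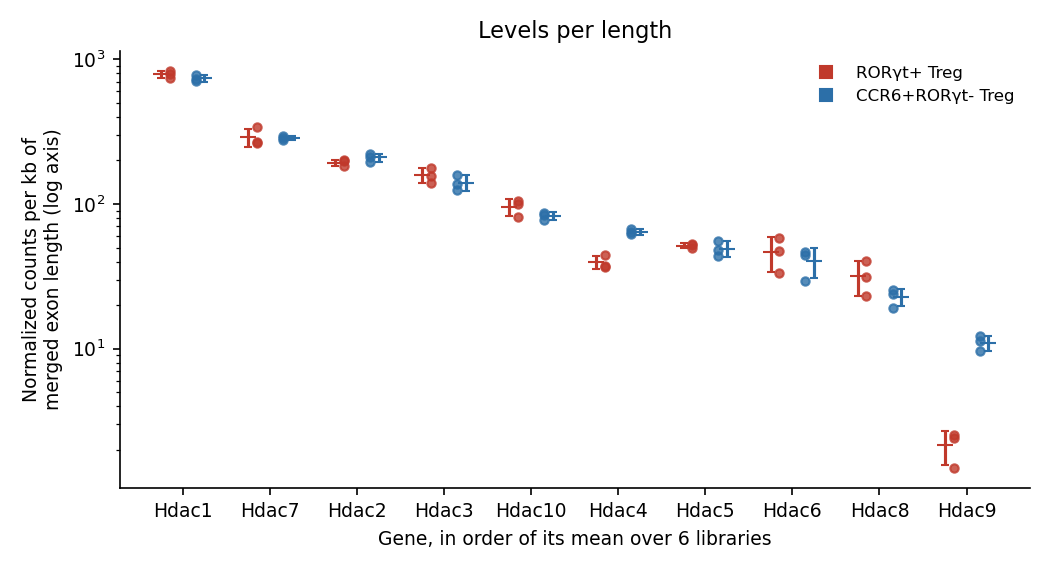
Normalized counts per kilobase of merged exon for the 10 deacetylases in order of their mean, on a log axis, with each library as a point, coloured by group, and a bar for each group's mean ± SD (n = 3). Hdac1 leads at a mean of 764 and Hdac9 is last at 6.57, and its groups are apart.

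The proteins that work with the deacetylases were read from 7 lists of 130 genes, of which 126 were in the table. Of these, 1 was called, lower in RORγt+, which is 0.794% against 0.564% of all genes. In 11 the groups did not overlap, which is 8.73% against 18.1% of all genes, 4 with RORγt+ above and 7 below. Their median log2 difference was -0.043.

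The called gene was Bcl6, a repressor that recruits class IIa deacetylases and directs follicular differentiation. It had 294, 285 and 279 normalized counts in RORγt+ and 603, 583 and 576 in RORγt- replicates 1, 2 and 3, with little spread within either group. Its log2 difference was -1.04 ± 0.13 (SE, adjusted p = 0.0224). It missed the threshold when any library other than RORγt+ replicate 3 was left out (adjusted p = 0.0933 to 0.161), and it had been described in these libraries before the list was made, so it is no independent evidence.

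Of the 30 class IIa partners and kinases measured, 29 did not pass, and the median log2 difference was 0.019. Camk1d, a calcium-dependent kinase that phosphorylates class IIa deacetylases, had 926, 1067 and 730 against 575, 598 and 685 normalized counts, without overlap (log2 difference 0.54 ± 0.17, adjusted p = 0.319). With libraries weighted by quality its adjusted p was 0.0469, in a fit that called 358 of all genes against 90 in the main fit. The related kinase Camk4 (0.29 ± 0.16, adjusted p = 0.614) and Ywhaz, an adaptor that holds phosphorylated class IIa enzymes in the cytoplasm (0.21 ± 0.11, adjusted p = 0.586), did not pass either. None of 4 MEF2 target genes measured passed, with a median of 0.21. Klf2, which sets lymphocyte trafficking, had 3692, 3295 and 5331 against 2708, 2737 and 2693 (0.57 ± 0.18, adjusted p = 0.32), and Nr4a1, induced by antigen receptor signals, was at -0.28 ± 0.20 (adjusted p = 0.706). Jun (-0.15 ± 0.39, adjusted p = 0.950) and Klf4 (0.65 ± 0.52, adjusted p = 0.735) completed that list.

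None of the 38 subunits of class I complexes passed, with a median of -0.083. In 4 of them, or 10.5%, the groups did not overlap and RORγt+ lay below, close to the 9.81% of all genes that did so. Chd4, the remodelling ATPase of NuRD, had a log2 difference of -0.37 ± 0.15 (adjusted p = 0.435). Elmsan1, the scaffold of the mitotic deacetylase complex, was at -0.43 ± 0.14 (adjusted p = 0.344), Ing1, a histone reader of the Sin3 complex, at -0.35 ± 0.14 (adjusted p = 0.411), and Mbd2, a methyl-CpG reader of NuRD, at 0.25 ± 0.13 (adjusted p = 0.572).

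None of the 13 acetyltransferases passed, with a median of 0.032. Among them were the coactivators Ep300 (-0.35 ± 0.16, adjusted p = 0.481), Crebbp (-0.26 ± 0.16, adjusted p = 0.643), Ncoa1 (0.35 ± 0.17, adjusted p = 0.525) and Kat5 (0.20 ± 0.15, adjusted p = 0.732). The 14 readers of acetylated lysine had a median of -0.13 and no call, with Brpf3 at -0.29 ± 0.16 (adjusted p = 0.593), Brd2 at -0.18 ± 0.16 (adjusted p = 0.777) and Bptf at -0.16 ± 0.17 (adjusted p = 0.828). Of the 8 other deacetylases none was called and none was without overlap, at a median of 0.018. The NAD-dependent Sirt1 (0.32 ± 0.21, adjusted p = 0.673), Sirt7 (0.23 ± 0.16, adjusted p = 0.700), Sirt4 (0.11 ± 0.30, adjusted p = 0.951) and Sirt3 (-0.12 ± 0.44, adjusted p = 0.966) are among them.

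Of 19 genes around the substrates of Hdac6, Hdac8 and Hdac10, none passed, at a median of -0.0060. Hsp90ab1, the constitutive Hsp90, had 18904, 20318 and 25637 against 36213, 28604 and 33596 normalized counts, without overlap (-0.61 ± 0.16, adjusted p = 0.221). Its adjusted p was 0.0326 with libraries weighted by quality, the fit that called 358 of all genes. Its inducible paralog Hsp90aa1 was at -0.57 ± 0.31 (adjusted p = 0.590). The tubulin genes Tuba1a (0.52 ± 0.27, adjusted p = 0.577) and Tuba4a (0.29 ± 0.22, adjusted p = 0.724) were highest in RORγt+ replicate 3.

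**Figure D4:**
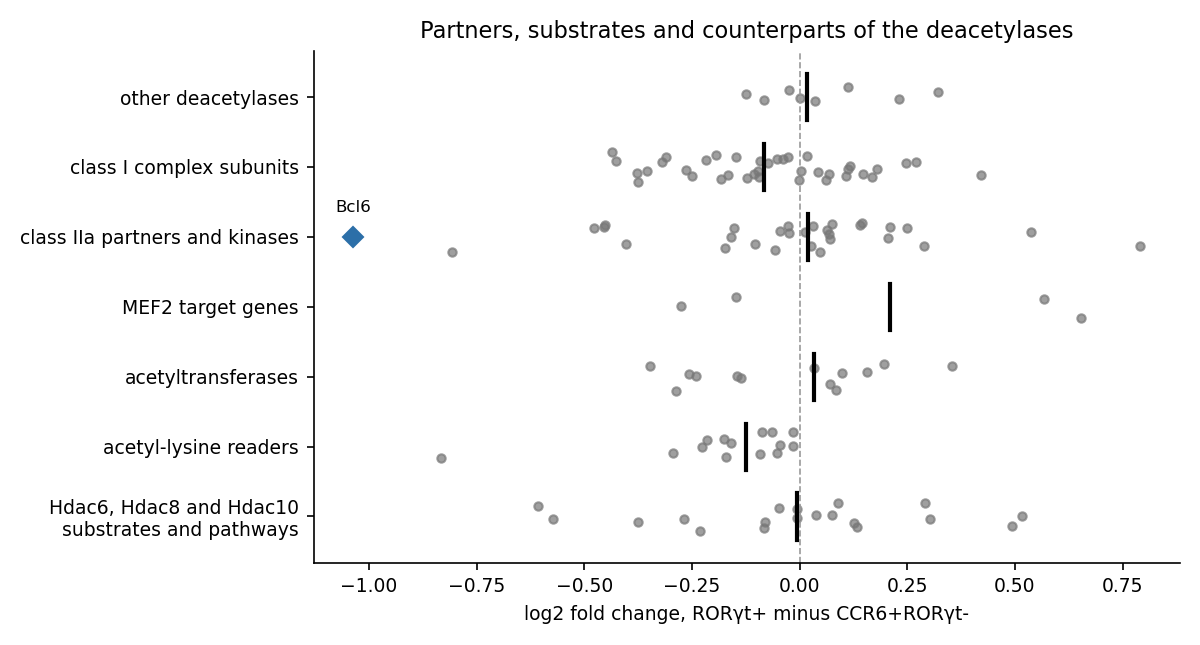
Log2 difference, RORγt+ minus RORγt-, of each gene of the 7 lists, as grey points by list with a bar at each list's median, and a diamond for a gene with a limma adjusted p under 0.05. Bcl6 at -1.04 is the only diamond, and the medians lie between -0.13 and 0.21.

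On chromosome 12, 21 genes in the table lie within 2 Mb of Hdac9, of which 15 are protein coding and 5 had a mean under 10 normalized counts. In 7 the groups did not overlap (33.3% against 18.1% of all genes), 6 with RORγt+ below and 1 above. Snx13, a sorting nexin and the nearest gene beyond the Hdac9 start, 130 kb away, had 521, 536 and 167 against 361, 525 and 723 normalized counts, with overlapping groups (-0.52 ± 0.48, adjusted p = 0.782). Ahr, the ligand-activated aryl hydrocarbon receptor, 581 kb away, stood the other way from Hdac9, at 553, 594 and 431 against 184, 260 and 246. Its log2 difference of 1.19 ± 0.20 missed the threshold (adjusted p = 0.0617) and passed it without RORγt+ replicate 3 (adjusted p = 0.0356) and with libraries weighted by quality (adjusted p = 0.0116). These fits called 174 and 358 of all genes, against 90 in the main fit. Over the 15 alternatives the adjusted p of Ahr reached 0.296.

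Sostdc1, a secreted BMP and Wnt antagonist 1397 kb beyond the Hdac9 start, was called lower. It had 0, 3.96 and 0 normalized counts in RORγt+ and 166, 135 and 85.9 in RORγt- replicates 1, 2 and 3 (-6.20 ± 0.70, adjusted p = 0.0157). With RORγt+ values at or near 0, the size of this difference is set by the pseudocount of 1, and it was -8.50 with 0.1 and -4.42 with 5. The call was lost with a pseudocount of 0.1 (adjusted p = 0.0701) and in 4 of the 6 fits without a library, those without RORγt+ replicate 1 or any RORγt- replicate (adjusted p = 0.0655 to 0.130). On the other side of Hdac9, Twistnb, a subunit of RNA polymerase I 606 kb away, had 868, 705 and 373 against 442, 717 and 748 (-0.02 ± 0.34, adjusted p = 0.992). Without overlap, Atxn7l1, Bzw2, Ankmy2 and the pseudogene Gm7002 had adjusted p of 0.360 to 0.623. Sostdc1, Ahr and Bcl6 were known from these libraries before the neighbourhood was read.

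**Figure D5:**
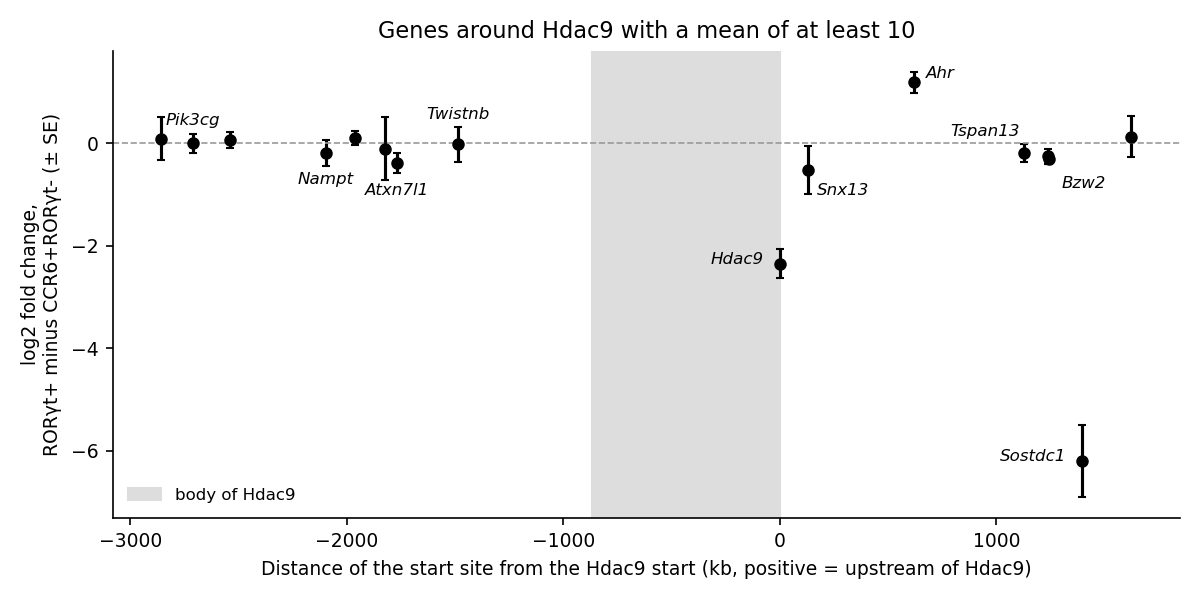
Log2 difference, RORγt+ minus RORγt-, of Hdac9 and the genes reported here within 2 Mb of it with a mean of at least 10 normalized counts, against the distance in kilobases of each start site from the Hdac9 start, with bars of 1 SE and the body of Hdac9 in grey. Of the genes plotted, Sostdc1 at -6.20, a size set by the pseudocount, and Hdac9 at -2.35 lie lowest and Ahr at 1.19 highest.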

How the data were processed

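The deposited table holds 1 signal value per gene and library, normalized counts to 2 decimals for 15944 genes. The submitters' processing notes name Salmon 1.2.0, DESeq2 and GRCm38 with no role or order. Which annotation, import step and strand setting the authors used is not given in the sources used here. In each library 51.7% to 69.9% of low values lay within 0.1 of a whole read, so raw reads were not recovered. The value of 1 read was 0.82 to 1.24 normalized counts. The members and all lists were chosen with earlier results of these data known.

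Limma 3.58.1 (R 4.3.3) was fitted to log2(value + 1) of all genes, unfiltered, with group as the only term and a trended empirical Bayes step (two-sided, Benjamini-Hochberg over all 15944 genes, adjusted p under 0.05), and was tested on simulated data. Fold changes on this scale understate those of low genes. Of the gene identifiers, 15866 were in GENCODE M21, the source of positions, lengths and 31-base windows.

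Named were all members, list genes past the threshold, up to 4 per list by adjusted p with a mean of at least 10, the 2 most abundant markers per list, the genes within 2 Mb of Hdac9, and the 5 genes most like and most opposed to Hdac9 among those with a mean of at least 50. Alternatives were pseudocounts 0.1 and 5, 3 other scalings, a mean of at least 10, robust variances, array weights, a replicate block, each library left out, and other gene lengths. A few genes named by this rule are not reported here.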

Additional observations from a re-analysis of the deposited data

How the results depend on the processing

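Of the pathway lists, 1 gene was called, and the same number under other pseudocounts, scalings, the filter and robust variances. Array weights, which gave RORγt+ replicate 3 a weight of 0.199, called 3, and 358 of all 15944 genes against 90 in the main fit. Leaving out a library gave 0 to 1 calls, with 1 only without RORγt+ replicate 3. That fit called 174 of all genes, and the other fits without a library 4 to 10. The pathway counts thus moved with the counts of all genes. The fits with fewer libraries have fewer residual degrees of freedom. The replicate block called 0 pathway genes and 1 of all genes. The labels do not say whether replicate numbers pair the libraries. Deviations from the group means correlated at -0.105, -0.022 and -0.184 between same-numbered libraries. Taken from means of 3 libraries, these values cannot settle whether libraries were paired. In this balanced design a block cannot change a log2 difference, only its error, and the SE of Hdac9 went from 0.284 to 0.320 and no member was called. Under the block, Bcl6 had an adjusted p of 0.240 and Sostdc1 of 0.109. Hdac9 ranged from -2.49 to -2.12 over the fits without a library. In the order of levels per length, 7 of 10 members kept their place with the mean coding transcript length and 6 with the longest. Over 44 pathway and neighbouring genes, 660 alternative values held 12 lost calls, 4 gained calls and 0 reversed calls, and 26 values of genes without a call changed sign. Depth limits Hdac9 most, with about 18 reads in its lowest library.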

Other observations

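Among 10322 genes with a symbol and a mean of at least 50 normalized counts, those whose log2 values over the 6 libraries were most like Hdac9 were Atp2b4 (Pearson's r = 0.998), Rpl21-ps6, Naip5, Rnf19a and Nrn1 (r = 0.994). Atp2b4, a plasma membrane calcium pump, had 559, 574 and 337 normalized counts in RORγt+ and 2279, 2429 and 2331 in RORγt- replicates 1, 2 and 3, so that RORγt+ replicate 3 was its lowest library, as for Hdac9. Naip5, a cytosolic sensor of flagellin, had 130, 156 and 88.5 against 417, 575 and 479, and Nrn1, a membrane-anchored protein first known from neurons, 167, 172 and 137 against 442, 438 and 445. The most opposed were Carhsp1 (r = -0.996), Itgb3, Crip1, Lsp1 and Aqp3 (r = -0.994). Aqp3, a water and glycerol channel, had 139, 139 and 260 against 43.3, 26.1 and 29.8 normalized counts, and Itgb3, an integrin subunit, 1234, 1276 and 1598 against 774, 740 and 744. Of the genes ranked, 114 had r of at least 0.95 and 87 of at most -0.95. RORγt+ replicate 3 was the lowest library for every gene named as most like Hdac9, and the highest for every gene named as most opposed. Pearson's r does not measure size: the log2 difference was -2.30 for Atp2b4 but -0.45 for Rnf19a and -0.40 for Rpl21-ps6. The 6 libraries fall into 2 groups, and the coefficients are given as a description with no test.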
